A study of Mus musculus with 2 samples.

Results

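The genes described here encode the nuclear subunits of the mitochondrial respiratory chain (complexes I to IV) and of the ATP synthase (complex V). They were taken by name: every gene with a protein-coding transcript whose symbol begins with Nduf followed by a, b, c, s or v and a digit, is Sdha, Sdhb, Sdhc or Sdhd, begins with Uqcr, is Cyc1, begins with Cox4 to Cox8, or begins with Atp5. The rule took 86 gene IDs of 55536 in the gene table and of 21901 with a protein-coding transcript. Of the 86, complex I has 37, complex II 4, complex III 9, complex IV 18 and complex V 18, and 2 IDs carry the symbol Atp5o, so that there are 85 symbols. No expression value was used to choose them.

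The series is polyadenylated RNA sequencing of C57BL/6J mouse macrophages, grown in culture from bone marrow and sampled 300 min after addition of a stimulus at 100 ng/mL. There is 1 group of 2 libraries, biological replicate 1 (R1) and biological replicate 2 (R2), with separate biosample records but a shared donor record, so the spread between them may be partly technical. Sex and age of the mice are not given, and no untreated or other group was analysed here. The stimulus is named Lipid A, the membrane anchor of bacterial lipopolysaccharide, in the sample descriptions, while the treatment fields name a protein, lipoprotein A, and it is therefore not named further. The values below are levels at that time point and their spread between the libraries, and state no response to the stimulus. With 1 library a side no test between the libraries was possible.

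Expected counts, which are read counts with shared reads divided among genes, summed to 38078399 in replicate 1 and 63705317 in replicate 2. The macrophage markers Adgre1, Csf1r, Itgam, Cd68, Lyz2, Mertk, Fcgr1 and Cd14 were all above 50 TPM in both libraries (a length-scaled share of the library, with the same total in each), and summed to 15672 TPM in R1 and 21714 TPM in R2. The 3 T cell markers summed to 0.06 TPM in R1 and 0 TPM in R2 (Cd3g at 0 in both), the 4 B cell markers to 1.51 TPM in R1 and 0.60 TPM in R2 and the 5 erythroid markers to 0.19 TPM in R1 and 0.30 TPM in R2 (Hbb-bs and Hbb-bt at 0). The 9 neutrophil markers summed to 553 TPM in R1 and 40.1 TPM in R2, with S100a9 at 316 TPM in R1 and 10.2 TPM in R2 and Ltf at 7.45 TPM in R1 and 0.35 TPM in R2. Others of the 9 were near 0, with Elane at 0.74 TPM in R1 and 0.10 TPM in R2. Mpo had 0.66 TPM in R1 and 0.09 TPM in R2, and Retnlg 0.25 TPM in R1 and 0 in R2. The 4 platelet markers summed to 766 TPM in R1 and 107 TPM in R2, nearly all of it Pf4 at 753 TPM in R1 and 105 TPM in R2. Of the same 4, Itga2b had 1.35 TPM in R1 and 0.09 TPM in R2, and Gp1bb 0.10 TPM in R1 and 0.03 TPM in R2. In bulk RNA, fewer cells of a type and less RNA per cell cannot be told apart.

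As background, complexes I and II pass electrons from NADH and succinate to ubiquinone, complex III passes them to cytochrome c and complex IV to oxygen. Complexes I, III and IV pump protons, and complex V lets the protons return and makes ATP. A few hydrophobic subunits are encoded in mitochondrial DNA and all others in the nucleus, so that the chain is built from products of both genomes. Inflammatory macrophages are known for a shift towards glycolysis, for succinate oxidation by complex II that drives reactive oxygen from complex I, and for itaconate, an inhibitor of succinate dehydrogenase that the enzyme Acod1 makes. Acod1 itself stood at 2852 TPM in R1 and 3594 TPM in R2.

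Nuclear respiratory genes are textbook targets of NRF1 (nuclear respiratory factor 1), of the ETS factor GABP (also called NRF2) and of YY1. To show what their promoters look like, 8 stretches of 150 bases are printed, from 120 bases before to 30 bases from the RefSeq start (GRCm38.p6). They are those of the gene with the highest mean TPM and a RefSeq window in each complex, with Cox6a1, Sdhd and Atp5j added for their motif matches after these had been seen. Capitals mark matches, on either strand, to GCGC followed by 2 free bases and GCGC (NRF1), CCGGAAG (ETS) or AANATGGC (YY1).
Ndufa1, complex I, chrX:37191209-37191358, minus strand: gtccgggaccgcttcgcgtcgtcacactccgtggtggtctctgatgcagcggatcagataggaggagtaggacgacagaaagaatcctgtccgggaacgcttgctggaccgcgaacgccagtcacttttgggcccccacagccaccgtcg
Sdha, complex II, chr13:74350211-74350360, minus strand: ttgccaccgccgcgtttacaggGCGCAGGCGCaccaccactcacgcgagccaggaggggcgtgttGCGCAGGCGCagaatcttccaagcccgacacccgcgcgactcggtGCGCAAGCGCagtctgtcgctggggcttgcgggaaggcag
Sdhd, complex II, chr9:50603820-50603969, minus strand: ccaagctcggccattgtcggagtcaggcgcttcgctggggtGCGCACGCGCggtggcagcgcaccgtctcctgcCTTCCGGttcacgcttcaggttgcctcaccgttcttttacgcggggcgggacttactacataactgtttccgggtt
Uqcrh, complex III, chr4:116075041-116075190, minus strand: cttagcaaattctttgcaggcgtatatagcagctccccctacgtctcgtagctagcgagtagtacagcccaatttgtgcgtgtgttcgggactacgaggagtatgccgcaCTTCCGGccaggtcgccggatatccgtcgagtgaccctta
Cox6b1, complex IV, chr7:30626085-30626234, minus strand: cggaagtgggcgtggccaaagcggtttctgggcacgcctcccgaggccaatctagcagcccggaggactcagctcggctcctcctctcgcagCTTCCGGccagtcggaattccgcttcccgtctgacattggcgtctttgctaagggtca
Cox6a1, complex IV, chr5:115348929-115349078, minus strand: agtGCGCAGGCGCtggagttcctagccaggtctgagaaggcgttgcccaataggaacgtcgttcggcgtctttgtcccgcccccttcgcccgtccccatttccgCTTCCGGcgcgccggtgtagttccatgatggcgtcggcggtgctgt
Atp5b, complex V, chr10:128083187-128083336, plus strand: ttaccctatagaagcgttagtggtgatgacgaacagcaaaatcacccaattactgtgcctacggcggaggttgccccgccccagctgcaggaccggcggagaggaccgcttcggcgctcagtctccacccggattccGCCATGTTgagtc
Atp5j, complex V, chr16:84834947-84835096, minus strand: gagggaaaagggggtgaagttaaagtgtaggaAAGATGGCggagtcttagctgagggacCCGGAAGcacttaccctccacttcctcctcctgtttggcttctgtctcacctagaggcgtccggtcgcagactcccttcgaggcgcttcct

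The Sdha stretch held 3 NRF1 matches, which began 98, 55 and 10 bases upstream of the start, and no ETS match. The Uqcrh and Cox6b1 stretches each held an ETS match, 10 and 28 bases upstream. Sdhd held an NRF1 match 79 bases and an ETS match 46 bases upstream. In Cox6a1 an NRF1 match began 117 bases and an ETS match 16 bases upstream, and the wider window had a further NRF1 match 162 bases upstream. The YY1 match of Atp5b began at base 18 downstream of the start. Atp5j runs head to head with Gabpa, the gene for the DNA-binding subunit of GABP, and their annotated exons overlap by 397 bases. Its ETS and YY1 matches began 61 and 88 bases upstream. The Ndufa1 stretch had no match, which says only that these letters are not in it. On the minus strand it ends at 37191209, before the annotated GENCODE gene begins at 37191163. The Sdhd stretch likewise ends at 50603820, before its annotated gene begins at 50603812.

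RefSeq start windows of 300 bases (250 before the start and 50 from it) were found for 66 of the 85 symbols, 71 windows in all, and 64 of the 71 starts lay within 50 bases of a GENCODE transcript start. An NRF1 match was present in 26.8% of the 71 windows, in 14.05% of 9583 windows of protein-coding genes at 1 TPM in both libraries and in 6.23% of all 32851 windows. ETS matches were in 22.5% of the 71 windows, against 19.8% for protein-coding genes at 1 TPM and 8.86% of all windows. YY1 matches were in 22.5% of the 71 windows, against 9.40% for protein-coding genes at 1 TPM and 6.05% of all windows. A cyclic AMP response element, TGACGTCA, was in 5.63% of the 71 windows, against 3.18% for protein-coding genes at 1 TPM and 1.79% of all. The TATA box letters TATAAA were in 11.3%, against 6.88% for protein-coding genes at 1 TPM and 13.6% of all. In the 67 of the 71 windows whose genes were at 1 TPM in both libraries, the TATAAA share was 8.96%. There the shares were 28.4% for NRF1, 23.9% for ETS, 23.9% for YY1 and 5.97% for the cyclic AMP element. The median GC content of the 71 windows was 57.3%, against 60.7% for protein-coding genes at 1 TPM and 52.7% for all windows. Matches to different motifs can overlap at their ends and each was counted on its own. In all, 43 of 66 genes had at least 1 match to the 3 motifs, 7 genes had matches to 2 or more of them, and 23 had none. Of 27 NRF1 matches 22 were centred within 100 bases of the start, as were 17 of 19 ETS matches. Neither these positions nor the 43 of 66 genes were set against the same counts over other genes, so they describe these windows alone. YY1 letters contain ATG, and 10 of 17 YY1 matches were centred past the start, a share of 58.8% that compares with 48.2% for protein-coding genes at 1 TPM. These matches are descriptions of sequence and no binding was measured.

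**Figure D1:**
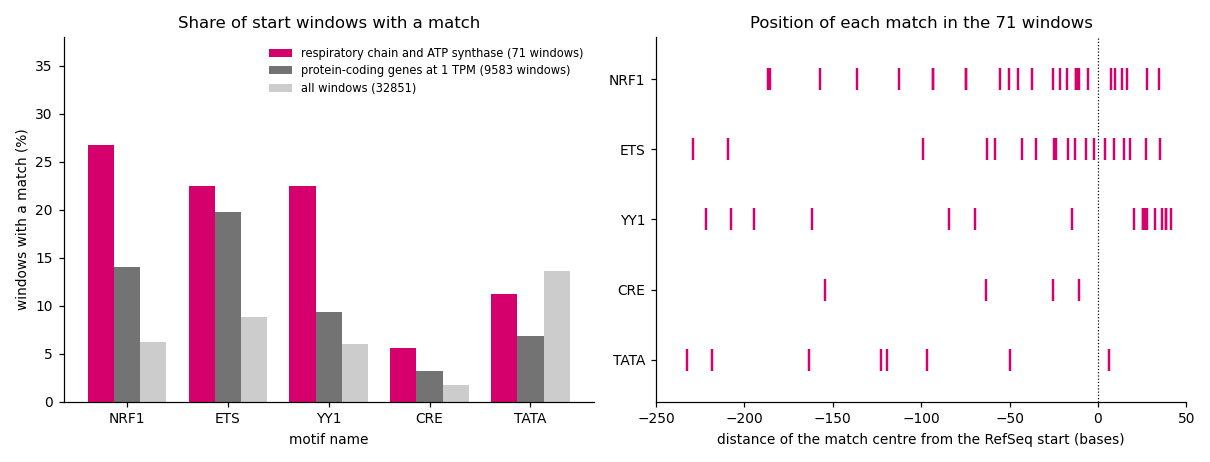
Left, share in percent of 300-base start windows with at least 1 match to each motif, for the 71 windows of respiratory chain and ATP synthase genes (magenta), 9583 windows of protein-coding genes at 1 TPM (dark grey) and all 32851 windows (light grey). Right, distance in bases of each match centre from the RefSeq start in the 71 windows. Of 27 NRF1 matches 22 lie within 100 bases of the start, which was not counted over other genes, and 10 of 17 YY1 matches lie past it.

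The chain was expressed as a nearly complete set at moderate to high levels. Of the 86 genes, 77 reached 1 TPM in both libraries, and 19 reached 100 TPM in both. The median gene had 82.4 TPM in R1 and 53.9 TPM in R2, against 0.32 TPM in R1 and 0.22 TPM in R2 over all protein-coding genes. Over the genes at 1 TPM in both libraries the medians were 101.6 TPM in R1 and 60.7 TPM in R2, against 15.1 TPM in R1 and 14.5 TPM in R2 for the 9338 protein-coding genes at that level. The median mean level of the 77 lay at the 82.9th percentile of those genes, while only 4 of the 77 ranked among the 500 highest protein-coding genes. Together the 86 genes held 1.14% of TPM in replicate 1 and 0.671% in replicate 2, a mean of 0.905% ± 0.331 (SD, n = 2). By expected counts the shares were 0.381% in R1 and 0.280% in R2, and the median effective length was 457 bases against 2153 bases for protein-coding genes at 1 TPM.

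For comparison, the 78 genes of mitochondrial ribosomal proteins had medians of 19.3 TPM in R1 and 14.3 TPM in R2, the 40 proteasome subunit genes 88.8 TPM in R1 and 67.3 TPM in R2 and the 84 cytosolic ribosomal protein genes 508 TPM in R1 and 334 TPM in R2. The respiratory genes thus stood near proteasome genes in both libraries and below cytosolic ribosomal genes.

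**Figure D2:**
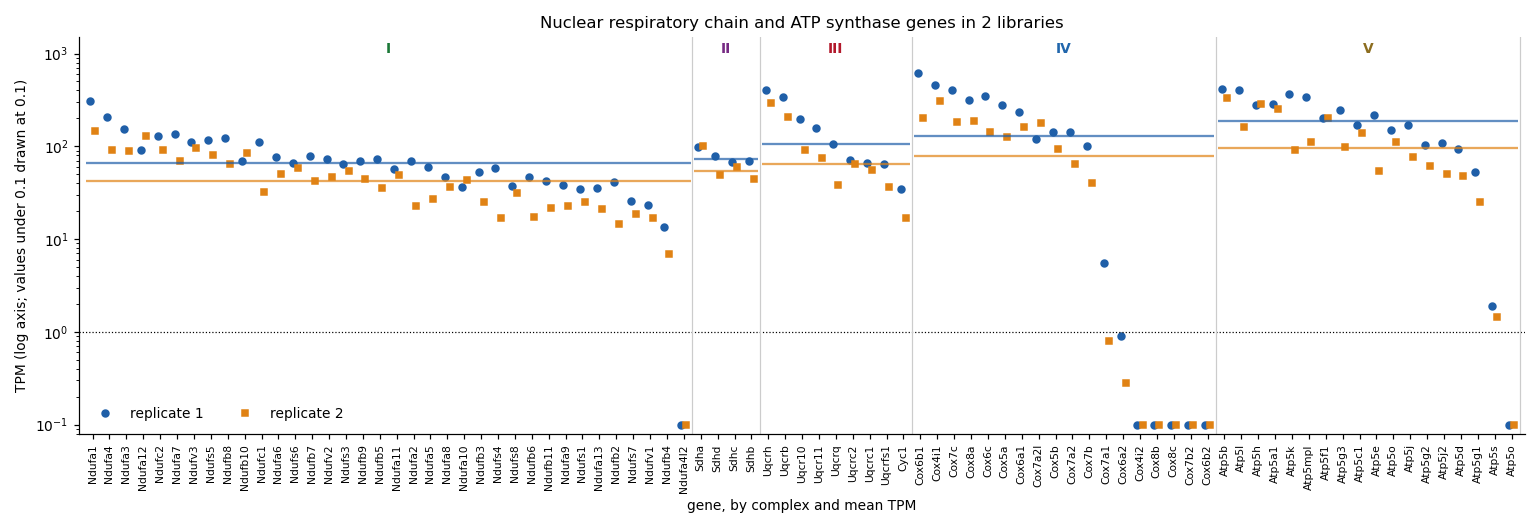
TPM on a log axis of 85 of the 86 gene IDs in replicate 1 (blue circles) and replicate 2 (orange squares), grouped by complex I to V and ordered by mean TPM, with values under 0.1 drawn at 0.1, horizontal bars at each complex's median in each library and a dotted line at 1 TPM. The 77 genes at 1 TPM in both libraries run from Atp5s at 1.89 TPM in R1 and 1.44 TPM in R2 to Cox6b1 at 615 TPM in R1 and 201 TPM in R2, and the genes at the floor are paralogues of complexes I and IV and a second Atp5o locus.

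The complexes kept the order V, IV, III, II, I in both libraries. Median levels in replicate 1 were 186 TPM for complex V, 130 TPM for IV, 105 TPM for III, 73.7 TPM for II and 66.5 TPM for I. In replicate 2 they were 95.6 TPM for complex V, 79.1 TPM for IV, 64.8 TPM for III, 54.4 TPM for II and 42.3 TPM for I. Relative to the median of all 86 genes, on the log2 scale, complex V stood at 1.00 ± 0.24, IV at 0.60 ± 0.07, III at 0.31 ± 0.06, II at -0.07 ± 0.12 and I at -0.33 ± 0.03 (SD, n = 2), and the ranges of neighbours did not overlap. With the genes at 1 TPM in both libraries alone, complex IV (1.44) came above complex V (0.85), because the complex IV median above includes 7 paralogues under 1 TPM in at least 1 library.

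Complex I, the NADH dehydrogenase, had 36 of its 37 genes at 1 TPM in both libraries. Its highest genes were Ndufa1, a small membrane-arm subunit (ENSMUSG00000016427.7, chromosome X, 37187588 to 37191163, minus strand, mm10), at 306 TPM in R1 and 148 TPM in R2, then Ndufa4 at 207 TPM in R1 and 90.8 TPM in R2 and Ndufa3 at 153 TPM in R1 and 89.4 TPM in R2. Ndufa4 bears a complex I name and is counted here with complex I, but its protein is known as a subunit of complex IV. The 7 core subunits, which carry the flavin and the iron-sulphur clusters or the quinone site, had medians of 37.7 TPM in R1 and 31.1 TPM in R2, against 68.7 TPM in R1 and 42.6 TPM in R2 for the 30 accessory subunits. Among the core genes Ndufv1, which binds NADH and flavin, was lowest at 23.3 TPM in R1 and 16.7 TPM in R2. The lowest detected gene of the complex was Ndufb4 at 13.3 TPM in R1 and 6.87 TPM in R2.

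Ndufb4 shares sequence with an expressed copy. Its processed pseudogene Ndufb4c, on chromosome 15, had 552 expected counts in R1 and 579 in R2, against 227 in R1 and 205 in R2 for Ndufb4 itself, and 19.1% of the 31-base words of Ndufb4 also occur in Ndufb4c. The second quantification divided the reads in nearly the same way, with 244 counts in R1 and 202 in R2 for Ndufb4, and 552 in R1 and 596 in R2 for Ndufb4c. The posterior SD of the Ndufb4 count was 2.90% of the count in R1 and 3.85% in R2. By TPM Ndufb4c stood at 173 in R1 and 93.7 in R2. Another locus outside the rule, Ndufb1-ps, is named for a different subunit and had 196 TPM in R1 and 94.1 TPM in R2. It is typed as a noncoding RNA in the annotation. The carrier protein gene Ndufab1, which has no digit after its letters and is also outside the rule, had 50.7 TPM in R1 and 41.8 TPM in R2.

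All 4 genes of complex II, succinate dehydrogenase, lay within 1.77-fold of each other by mean TPM. Sdha, the flavoprotein that oxidises succinate (ENSMUSG00000021577.14, chromosome 13, 74322254 to 74350280, minus strand), had 98.8 TPM in R1 and 101.7 TPM in R2. Sdhb, the iron-sulphur subunit, had 68.9 TPM in R1 and 44.5 TPM in R2. Of the membrane anchors, Sdhc had 67.0 TPM in R1 and 59.5 TPM in R2, and Sdhd had 78.6 TPM in R1 and 49.4 TPM in R2. Sdha was the highest of the 4 in both libraries, and its libraries lay within 3 TPM of each other.

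In complex III, the cytochrome bc1 complex, the 5 small subunits had the highest median, 198 TPM in R1 and 90.6 TPM in R2. Uqcrh, the acidic hinge protein (chromosome 4, 116066965 to 116075071, minus strand), had 405 TPM in R1 and 296 TPM in R2. Uqcrb, which borders the quinone pocket, had 342 TPM in R1 and 209 TPM in R2. The matrix-facing core protein Uqcrc1 had 66.4 TPM in R1 and 55.9 TPM in R2, and Uqcrc2 had 71.3 TPM in R1 and 64.8 TPM in R2. The electron-carrying subunits had the lowest median of the 3 classes, with the Rieske iron-sulphur protein Uqcrfs1 at 64.1 TPM in R1 and 36.8 TPM in R2 and cytochrome c1, Cyc1, at 35.0 TPM in R1 and 16.8 TPM in R2. The lowest and highest genes of this complex differed 13.5-fold by mean TPM.

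Complex IV, cytochrome c oxidase, had the gene with the highest mean TPM of the 86 by the gene table, Cox6b1. In replicate 2 alone Atp5b was the highest of the 86. Cox6b1, a subunit at the contact of the dimer (ENSMUSG00000036751.7, chromosome 7, 30616861 to 30626151, minus strand), had 615 TPM in R1 and 201 TPM in R2. Cox4i1, the regulatory subunit that binds ATP, had 453 TPM in R1 and 305 TPM in R2, and Cox7c had 406 TPM in R1 and 184 TPM in R2. All 11 detected genes had a mean above 70 TPM, and Cox7b, at 102 TPM in R1 and 39.9 TPM in R2, had the lowest. Cox8a had 318 TPM in R1 and 186 TPM in R2, Cox6a1 236 TPM in R1 and 162 TPM in R2, and Cox7a2 141 TPM in R1 and 65.1 TPM in R2.

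In the paralogue sets, the widely expressed form held nearly all of the RNA. Cox4i2, the lung and hypoxia form of subunit 4, Cox6b2, Cox7b2 and Cox8c, forms known from testis, Cox8b, a muscle form, and Ndufa4l2, a hypoxia-induced relative of Ndufa4, had 0 expected counts in both libraries. For the shortest of these, Cox8b, 0 counts allow up to 1.16 TPM in R1 and 0.593 TPM in R2, and for Cox4i2 up to 0.265 TPM in R1 and 0.151 TPM in R2 (3 counts per library, counting error only). The second quantification gave Cox4i2 2 counts in each library. Cox6a2, the heart and skeletal muscle form of subunit 6a, had 9 counts (0.89 TPM) in R1 and 5 counts (0.28 TPM) in R2. Cox7a1, the muscle form of subunit 7a, had 18 counts (5.52 TPM) in R1 and 5 counts (0.79 TPM) in R2. Of the TPM of its pair, Cox6a1 held 99.6% in R1 and 99.8% in R2, and Cox7a2 held 96.2% in R1 and 98.8% in R2. In the other 5 sets of complex IV and of Ndufa4 the leading gene held 100%. The muscle markers Acta1, Myh6, Myh7, Ckm and Tnnt2 summed to 0.04 TPM in R1 and 0.08 TPM in R2, with Acta1 and Myh6 at 0.

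The ATP synthase was led by Atp5b, the catalytic beta subunit (ENSMUSG00000025393.12, chromosome 10, 128083273 to 128090391, plus strand), at 415 TPM in R1 and 328 TPM in R2. Its partner in the F1 hexamer, the alpha subunit Atp5a1, had 284 TPM in R1 and 253 TPM in R2. The central stalk joins the F1 head to the rotor. Its gamma subunit gene Atp5c1 had 169 TPM in R1 and 138 TPM in R2, the delta gene Atp5d 92.7 TPM in R1 and 48.1 TPM in R2, and the epsilon gene Atp5e 216 TPM in R1 and 53.8 TPM in R2. The peripheral stalk holds the head still. There Atp5h had 279 TPM in R1 and 286 TPM in R2, and Atp5f1 had 202.1 TPM in R1 and 202.3 TPM in R2. Atp5o had 152 TPM in R1 and 112 TPM in R2 and Atp5j 169 TPM in R1 and 76.4 TPM in R2. Small membrane subunits take part in dimer formation and cristae shape. Atp5l had 408 TPM in R1 and 162 TPM in R2, and Atp5k had 366 TPM in R1 and 92.0 TPM in R2. Atp5mpl had 336 TPM in R1 and 111 TPM in R2, and Atp5j2 had 108 TPM in R1 and 50.5 TPM in R2. Atp5s, the coupling factor B gene, was low at 1.89 TPM in R1 and 1.44 TPM in R2. The second Atp5o ID, a locus whose exons overlap both Atp5o and Donson, had 0 counts. By TPM, though not by the scaled counts below, Atp5h and Atp5f1 were level between the libraries. The 4 small membrane genes and Atp5e were each at least 2-fold higher in replicate 1 by TPM.

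The c ring, which turns as protons pass, is built from the identical mature protein of 3 genes. Atp5g3 held 60.9% of their TPM in replicate 1 and 53.7% in replicate 2, Atp5g2 25.8% in R1 and 32.8% in R2, and Atp5g1 13.3% in R1 and 13.5% in R2. That division depends on the quantification, because Atp5g2 was the only gene of the 77 at 10 TPM or more for which the tables differed by 2-fold or more in both libraries. Atp5g2 had 1171 expected counts in R1 and 1198 in R2 (104 TPM in R1 and 60.7 TPM in R2) in the gene table but 61.9 counts in R1 and 92.5 in R2 (5.11 TPM in R1 and 4.97 TPM in R2) in the second quantification. Gm10175, on chromosome 7, differed the other way, with 275 counts in R1 and 167 in R2 in the gene table but 1428 in R1 and 1316 in R2 in the second. The sum over both genes was 1446 counts in R1 and 1365 in R2 in the gene table, and 1490 in R1 and 1409 in R2 in the second, and 37.5% of the 31-base words of Atp5g2 occur in Gm10175. Both tables placed Atp5g3 first, at 80.6% in R1 and 77.0% in R2 of the 3 genes in the second. The level of Atp5g2 alone is therefore uncertain.

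**Figure D3:**
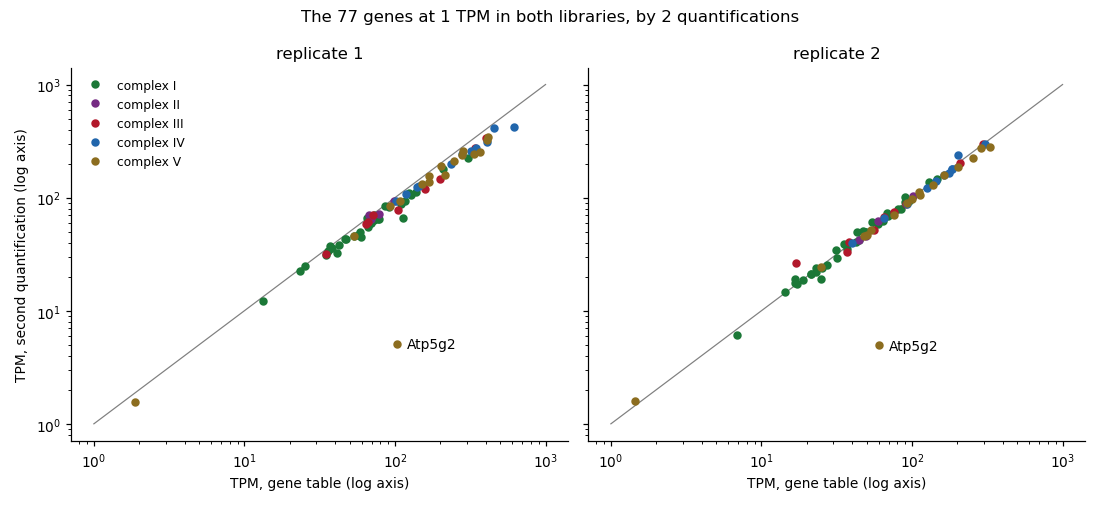
TPM in the gene table (horizontal, log axis) against TPM in the second quantification (vertical, log axis) for the 77 genes at 1 TPM in both libraries, coloured by complex, with replicate 1 in the left panel and replicate 2 in the right; the grey line marks equal values. Points follow the line except Atp5g2, at 104 against 5.11 TPM in replicate 1 and 60.7 against 4.97 TPM in replicate 2.

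Reads shared with other loci touched many of these genes to a smaller extent. Of the 86, 32 shared over 10% of their 31-base words with another gene and 20 shared none, with a median of 4.47%. Exons of 26 overlapped a gene on the opposite strand, in 16 cases one at 1 TPM in both libraries, such as Emc8 for Cox4i1 and Gabpa for Atp5j. Whether strand was used in counting is not stated, so reads of such partners cannot be told apart with certainty.

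Most of the RNA was assigned to coding transcripts. The median share of a gene's TPM in transcripts typed protein_coding was 99.1% in replicate 1 and 99.3% in replicate 2 over the 77 genes, against 97.2% in R1 and 97.6% in R2 over protein-coding genes at 1 TPM. The exceptions were few. Ndufa5, a matrix-arm accessory subunit, had 28.7% (R1) and 31.5% (R2) in coding transcripts, with 71.3% (R1) and 68.5% (R2) in a processed transcript with no coding sequence. Ndufs4, an accessory subunit needed for complex I assembly, had 36.7% in R1 and 52.2% in R2, and its leading transcript was the nonsense-mediated decay form Ndufs4-202 (52.0%) in replicate 1 and the coding Ndufs4-201 (50.6%) in replicate 2. Cox6b1 had 48.9% in R1 and 82.6% in R2, and its short retained-intron transcript Cox6b1-202 held 51.1% of TPM in R1 and 17.4% in R2. The coding transcript Cox6b1-201 alone had 293 TPM in R1 and 160 TPM in R2, a smaller gap between the libraries than that of the whole gene. In the second quantification Cox6b1-202 had 145 TPM in R1 and 94.4 TPM in R2, and Cox6b1-201 273 TPM in R1 and 134 TPM in R2. The whole gene there had 422 TPM in R1 and 237 TPM in R2, so by ratio Cox6b1-201 had the larger gap.

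Further genes divided their RNA among transcripts. Atp5f1, subunit b, was 51.4% in R1 and 23.5% in R2 coding, with the decay form Atp5f1-203 at 45.4% in R1 and 75.1% in R2, at nearly equal totals for the gene. Atp5j, subunit F6, was 50.5% in R1 and 67.5% in R2 coding, with the retained-intron form Atp5j-208 at 45.1% in R1 and 30.8% in R2. Ndufv2, a core subunit, differed in its leading transcript, coding in both libraries, with Ndufv2-201 at 55.1% in R1 and 35.7% in R2 and Ndufv2-203 at 42.6% in R1 and 61.5% in R2. These divisions rest on how each quantification assigned reads among overlapping transcripts.

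As a set, the genes had higher levels in replicate 1. By TMM-scaled counts (library sizes scaled by edgeR's trimmed mean of M-values), 77 of the 86 genes had enough counts and their median log2 ratio, replicate 1 over replicate 2, was 0.53, against 0.01 over all 12226 genes with enough counts. Of the 77, 66 were higher in replicate 1 and 11 in replicate 2. A ratio of 1.5-fold or more was reached by 34 genes (44.2%) towards replicate 1, where 19.1% of all genes were, and by 2 genes (2.60%) towards replicate 2, where 16.7% of all genes were. At 2-fold, 14 genes were past it towards replicate 1, where 7.94% of all genes were, and 0 towards replicate 2, where 5.25% of all genes were. The exact 95% counting interval lay above 0 for 61 genes, below 0 for 8 and held 0 for 8, where over all genes it lay above 0 for 35.8% and below 0 for 35.9%. Such intervals cover counting error only. The medians of the complexes were 0.54 for I, 0.45 for II, 0.60 for III, 0.70 for IV and 0.69 for V. With a smooth trend on length and GC content removed, these medians were 0.43 for I and 0.46 for II. They were then 0.59 for III, 0.40 for IV and 0.54 for V, so the order of the complexes depended on that trend.

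**Figure D4:**
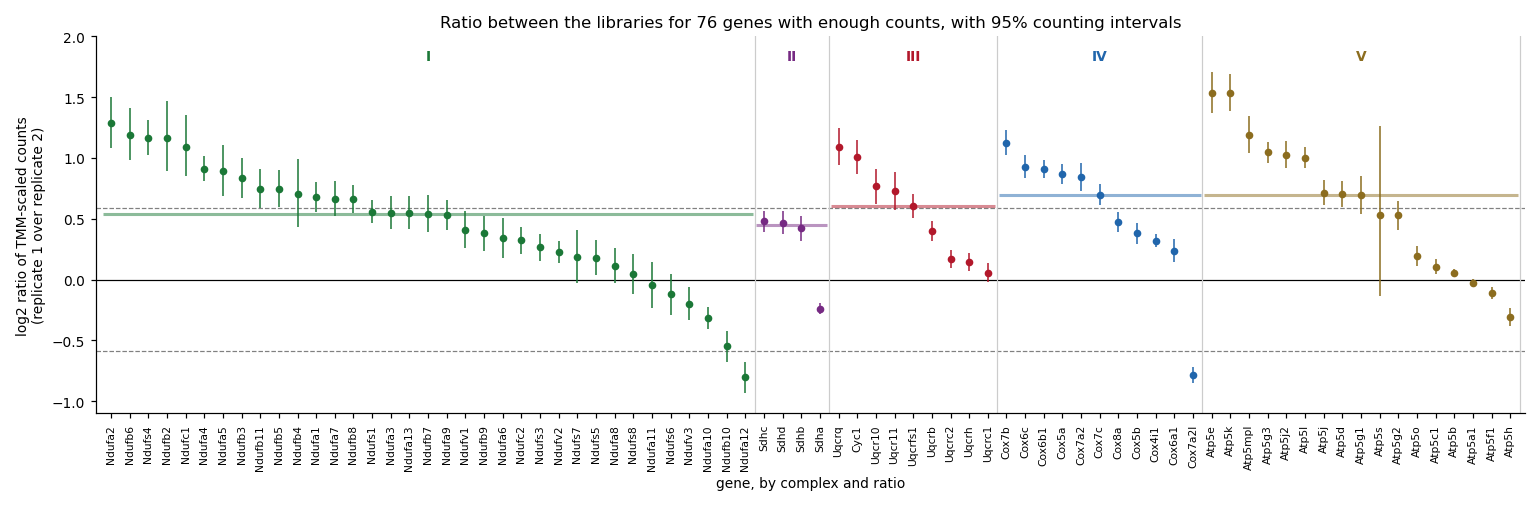
Ratio of scaled counts (log2, replicate 1 over 2) of 76 of the 77 genes with enough counts, coloured and grouped by complex, with exact 95% counting intervals as vertical bars, the median of each complex over all its genes as a thick line and dashed lines at 1.5-fold. Most points lie above 0, the highest are Atp5e and Atp5k at 1.53, and Ndufa12 and Cox7a2l are below the lower dashed line.

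The ratio differed between roles. All 4 small membrane genes of the ATP synthase were past 1.5-fold, with a median of 1.11, against 2 of 5 F1 genes (median 0.10) and 1 of 4 peripheral stalk genes (median 0.04, and -0.15 with a smooth trend on length and GC content removed). In complex I, 14 of 29 accessory genes (median 0.55), Ndufa4 among the 14, were past 1.5-fold towards replicate 1. Of the 7 core genes (median 0.22) 0 were. In complex III both electron-carrying genes and 3 of 5 small ones were, and 0 of 2 core protein genes. None of the 4 complex II genes was, and in complex IV 6 of 11 were. Over all genes with enough counts 19.1% were past it towards replicate 1, and several of these classes hold only 2 to 5 genes. The classes with the higher ratio were also the shorter in complexes I and V, with median effective lengths of 207 bases for the small membrane genes and 880 for F1, and 394 for accessory and 1056 for core genes of complex I. In complex III the electron-carrying pair had a median ratio of 0.80 at 1109 bases. With the same trend removed, the medians were 1.06 for small membrane and 0.16 for F1 genes, and 0.48 for accessory and 0.23 for core genes of complex I. Past 1.5-fold towards replicate 1 were then 3 of 4 small membrane, 2 of 5 F1 and 0 of 4 peripheral stalk genes. In complex I 11 of 29 accessory and 0 of 7 core genes were, and in complex IV 3 of 11. The counts of complexes II and III did not change, and the share over all genes was 15.9%.

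The 10 largest ratios towards replicate 1 were those of Atp5e, Atp5k, Ndufa2, Ndufb6, Atp5mpl, Ndufs4, Ndufb2, Cox7b, Ndufc1 and Uqcrq, from 1.53 to 1.09. By TPM, the complex I accessory genes Ndufa2 (68.8 in R1, 22.9 in R2), Ndufb6 (47.1 in R1, 17.2 in R2), Ndufb2 (41.5 in R1, 14.4 in R2) and Ndufc1 (113 in R1, 31.8 in R2) were all higher in R1, as was Uqcrq (105 in R1, 37.9 in R2). Atp5e (ENSMUSG00000016252.7, chromosome 2, 174461072 to 174464105, minus strand) had 857 expected counts in replicate 1 and 435 in the deeper replicate 2, a 2.90-fold difference after scaling (log2 1.53, interval 1.37 to 1.71). Atp5k, subunit e of the membrane part (chromosome 5, 108433244 to 108434448, minus strand), had 1040 counts in R1 and 530 in R2, or 2.89-fold (log2 1.53, interval 1.38 to 1.69). Ndufs4 had 957 counts in R1 and 629 in R2 (log2 1.16, interval 1.02 to 1.31).

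The largest ratios towards replicate 2 were those of Ndufa12, Cox7a2l, Ndufb10, Ndufa10, Atp5h, Sdha, Ndufv3, Ndufs6, Atp5f1 and Ndufa11, and the first 2 alone were past 1.5-fold. The TPM of Ndufa11 (57.0 in R1, 49.0 in R2), Ndufs6 (66.5 in R1, 59.0 in R2) and Ndufv3 (110.1 in R1, 95.1 in R2) ran the other way from their counts, while Ndufb10 (68.6 in R1, 84.0 in R2) and Ndufa10 (36.9 in R1, 42.9 in R2) did not. Ndufa12, an accessory subunit (ENSMUSG00000020022.17, chromosome 10, 94198720 to 94221443, plus strand), had 689 counts in R1 and 1777 in R2 and 90.8 TPM in R1 and 130 TPM in R2 (log2 -0.80, interval -0.93 to -0.68). Cox7a2l (ENSMUSG00000024248.14, chromosome 17, 83501918 to 83517330, minus strand) had 2371 counts in R1 and 6028 in R2 and 119 TPM in R1 and 176 TPM in R2 (log2 -0.78, interval -0.85 to -0.72). Its product, SCAF1, joins complexes III and IV into supercomplexes, and C57BL/6 mice are known to carry a short allele of it. Sdha, at 6329 counts in R1 and 11017 in R2, had a log2 ratio of -0.24 (interval -0.28 to -0.19), while Sdhb, Sdhc and Sdhd had 0.42 (Sdhb), 0.48 (Sdhc) and 0.47 (Sdhd).

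Length and base composition differed with the ratio. Across the 77 genes Spearman's rho of ratio with effective length was -0.39 and with GC content -0.18, over genes that share both libraries. Each length class was compared with the other protein-coding genes with enough counts in it. In the 7 genes of up to 200 bases the median log2 ratio was 1.09, against 0.54 for 24 others. It was 0.61 against 0.47 at 200 to 300 bases, 0.54 against 0.29 at 300 to 500, 0.50 against 0.16 at 500 to 1000, and 0.17 against -0.02 at 1000 to 3000 bases. In each of these 5 classes the respiratory genes had the higher median. From the effective lengths, fragments averaged 280 bases in replicate 1 and 247 bases in replicate 2. With the length and GC trend removed, the median over the 77 was 0.47, and 26 genes were past 1.5-fold towards replicate 1 and 3 towards replicate 2, where 15.9% of all genes were past it towards replicate 1 and 14.9% towards replicate 2.

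**Figure D5:**
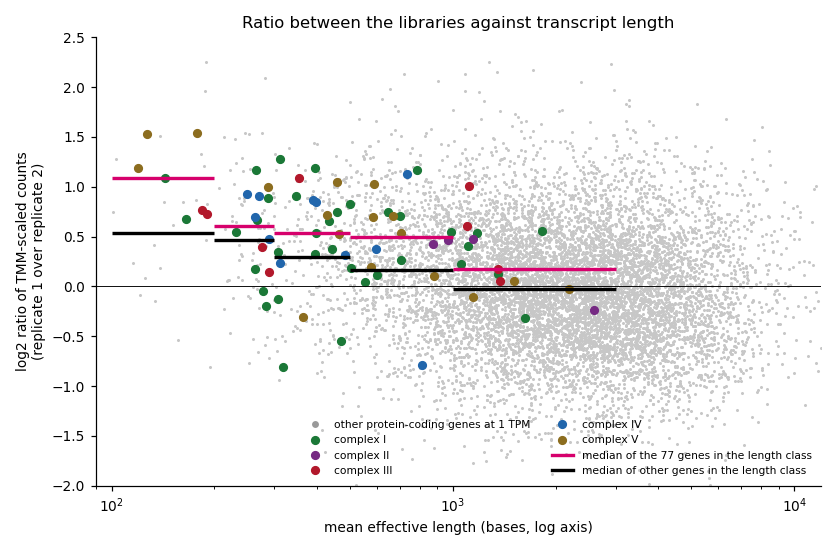
Ratio of scaled counts (log2, replicate 1 over 2) against mean effective length in bases (log axis), for the 77 genes coloured by complex and other protein-coding genes at 1 TPM in grey. Medians per length class are in magenta for the 77 genes and in black for all other protein-coding genes with enough counts. Magenta lies above black in all 5 classes, at 1.09 against 0.54 in the shortest and 0.17 against -0.02 in the longest.

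Other house-keeping machines had smaller ratios. The median log2 ratio was 0.29 for mitochondrial ribosomal, 0.23 for cytosolic ribosomal and 0.21 for proteasome genes, and with the length and GC trend removed it was 0.15 for mitochondrial ribosomal, 0.12 for cytosolic ribosomal and 0.03 for proteasome genes. The respiratory genes had 0.53, and 0.47 with the trend removed. These are descriptions of a single pair of libraries. The 5 neutrophil markers with enough counts all had ratios past 1.5-fold in the same direction (median log2 ratio 4.25), as did the 2 platelet markers, and the macrophage markers had a median of -0.29 with Cd68 at -1.34. Whether other cells were present, and their part in the respiratory gene ratios, was not tested. On the log2(TPM + 1) scale 47 genes were past 1.5-fold towards replicate 1 and 0 towards replicate 2, where 18.1% of all genes were past it towards replicate 1 and 11.0% towards replicate 2.

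Genes that build or serve the chain were detected at lower levels. Of 51 assembly factor genes for complexes I to V, 46 were at 1 TPM in both, and the medians were 9.50 TPM in R1 and 6.82 TPM in R2. The highest were the complex IV copper chaperone Cox17, at 313 TPM in R1 and 120 TPM in R2, and Coa5 at 127 TPM in R1 and 124 TPM in R2. Foxred1 (19.9 TPM in R1 and 11.4 TPM in R2) and Ndufaf2 (13.6 TPM in R1 and 9.91 TPM in R2) led the complex I list. The complex II list was led by Sdhaf2 (35.4 TPM in R1 and 38.4 TPM in R2) and Sdhaf4 (15.6 TPM in R1 and 6.86 TPM in R2). The complex III list was led by Uqcc2 (45.9 TPM in R1 and 14.8 TPM in R2) and Uqcc1 (21.1 TPM in R1 and 17.2 TPM in R2). The complex V list was led by Tmem242 (46.6 TPM in R1 and 30.1 TPM in R2) and Tmem70 (20.7 TPM in R1 and 11.3 TPM in R2). Of 50 assembly genes with enough counts, 16 (32%) were past 1.5-fold towards replicate 1 and 0 towards replicate 2, against 19.1% and 16.7% of all genes, with a median log2 ratio of 0.34. With the length and GC trend removed the counts were 14 and 3, against 15.9% and 14.9% of all genes, and the median was 0.24. The 3 were Cox20, Lyrm7 and Cox16. Pet117, a complex IV factor with 0 counts in R1 and 68.7 in R2, was not among the 50. Coa1, a 16th complex I assembly gene that was listed, was not matched.

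Among electron carriers and neighbours of the chain, all 14 listed genes reached 1 TPM. The uncoupling protein gene Ucp2 was highest at 495 TPM in R1 and 488 TPM in R2. Second by mean TPM was AA467197, also named Nmes1, at 306 TPM in R1 and 244 TPM in R2, which exceeded Ndufa4 (207 TPM in R1 and 90.8 TPM in R2) in both libraries. Its human counterpart is known to take the place of NDUFA4 in complex IV during inflammation. AA467197 had 3826 counts in R1 and 5341 in R2 (log2 ratio 0.08), and Ndufa4 had 1719 in R1 and 1348 in R2 (log2 ratio 0.91). Cytochrome c, Cycs, had 81.9 TPM in R1 and 78.4 TPM in R2. Of the 14, 6 were past 1.5-fold towards replicate 1 and 1, Ucp2 (log2 ratio -0.68), towards replicate 2, against 19.1% and 16.7% of all genes. With the length and GC trend removed, 5 were past it towards replicate 1 and 0 towards replicate 2, with Ucp2 at -0.56. The shares over all genes were then 15.9% and 14.9%. The ATP synthase inhibitor gene, listed as Atpif1 and outside the rule by its name, had 276 TPM in R1 and 317 TPM in R2, and Usmg5, a small ATP synthase subunit also outside it, had 562 TPM in R1 and 360 TPM in R2.

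Regulators of the respiratory programme were modest in level. Hif1a, the hypoxia factor subunit, was highest at 91.9 TPM in R1 and 64.3 TPM in R2, followed by Gabpb1 at 26.7 TPM in R1 and 37.6 TPM in R2. Gabpa had 22.6 TPM in R1 and 31.4 TPM in R2, and Nrf1 10.2 TPM in R1 and 8.35 TPM in R2. Tfam, which packages mitochondrial DNA and helps start its transcription, had 17.0 TPM in R1 and 22.8 TPM in R2. Of the PGC-1 coactivators Ppargc1b had 2.97 TPM in R1 and 3.16 TPM in R2, whereas Ppargc1a had 0 counts in R1 and 2 in R2. Of 12 regulators with enough counts 0 were past 1.5-fold towards replicate 1 and 2 (16.7%), Gabpb1 and Pprc1, towards replicate 2, the same share as the 16.7% of all genes. With the length and GC trend removed, 1 gene, Esrra (0.69), was past it towards replicate 1, where 15.9% of all genes were. Towards replicate 2 it was again 2, Gabpb1 and Pprc1, where 14.9% of all genes were. The regulators had a median log2 ratio of 0.04, and of -0.15 with that trend removed.

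The 13 mitochondrially encoded subunits had a median of 2459 TPM in R1 and 3926 TPM in R2, and over 12 genes a median log2 ratio of -0.59 (-1.46 with the length and GC trend removed), with mt-Nd3 at 1.28. mt-Co1 had 12652 TPM in R1 and 17581 TPM in R2. The gene without enough counts, mt-Co3, had 3.93 expected counts in R1 and 1510 in R2. Its level was 0.31 TPM in R1 and 68.2 TPM in R2 in the gene table but 1662 TPM in R1 and 1581 TPM in R2 in the second quantification. Other genes differed too. mt-Atp6 had 264 TPM in R1 and 1124 TPM in R2 against 8324 and 11682 in the second. For mt-Atp8 the values were 45460 and 40928 against 11118 and 16505. For mt-Nd3 they were 268 and 82.6 against 959 and 673. The ratios of such genes depend on how reads were divided.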

How the data were processed

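For each library the authors deposited 1 table of genes and 2 of transcripts, made against mm10 and GENCODE M21, per the accompanying notes. The tables have the layouts of RSEM and, for the second transcript table, kallisto. Which program versions and strand setting were used is not given in the sources used here. The deposited expected counts are estimated reads per gene or transcript, not normalized. The deposited TPM values are scaled for length and to a fixed total, so genes with short effective lengths gain TPM from few reads, and the deposited FPKM values are scaled for length and fragment number. The authors' percent column gives each transcript's share of its gene's TPM, and the deposited posterior SD of each count was read as a score of read sharing. Rows that name no gene (26345, with numeric or spike-in IDs) held 0.132% of counts in replicate 1 and 0.0882% in replicate 2 and were left out.

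The members, gene lists and comparisons were chosen with earlier results of these data known. Means and SDs are over the 2 libraries. Expected counts were rounded, genes with enough counts chosen with edgeR 4.0.16 (filterByExpr, R 4.3.3; 12226 of 55536), and library sizes scaled by TMM. Log2 ratios used a prior count of 2, intervals are exact (Clopper-Pearson, 95%), and length and GC trends were fitted with mgcv 1.9.3. DESeq2 1.42.0 size factors were an alternative. No p-value was computed. Named genes are all Sdh genes, the 3 highest and 2 lowest of complexes I, III, IV and V, all members of the paralogue sets, the 10 largest ratios each way at 100 or more summed counts, genes whose quantifications or leading transcripts differed at 10 TPM or more, and the 2 highest of each other list with fixed regulators; further genes were named for their role or after their values were seen. The values of 1 member are not reported here or drawn by name. Shared words are 31-base words of annotated transcripts.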

Additional observations from a re-analysis of the deposited data

How the results depend on the processing

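No paired analysis was possible because there is only 1 group. With 2 libraries, the ratio has no value without either of them. Leaving out a library gave a median level of 53.9 to 82.4 TPM, a share of TPM of 0.671 to 1.14%, 77 to 78 genes at 1 TPM, complex levels of -0.349 to -0.308 (I), -0.159 to 0.014 (II), 0.266 to 0.346 (III), 0.553 to 0.657 (IV) and 0.827 to 1.17 (V), and an Atp5g3 share of 53.7 to 60.9%.
Of 65 other values under alternatives chosen at the start, 44 stayed within the SD of the libraries, for the ratio within its counting interval, or for counts of genes within 1.5 times. In other units, the median level was 44.5 FPKM and the share 0.331% of counts. The median log2 ratio of 0.533 was 0.712 with total counts, where all genes had 0.189, 0.727 on log2(TPM + 1), where all genes had 0.098, and 0.390 with the length trend alone removed; it ranged from 0.390 to 0.727 over 8 alternatives and was positive in all. At 2-fold 14 genes were called, all towards replicate 1, where 7.94% of all genes were, against 36 at 1.5-fold. The complexes' order depended on how members near 0 enter. By the mean of log2(TPM + 1) complex IV turned to -0.967 and complex II to 0.421, with I at -0.142, III at 0.830 and V at 0.751. With genes at 1 TPM alone I was -0.550, II -0.309, III 0.069 and IV 1.443. In the second quantification I was -0.281 and II 0.053. There the leading gene's share was 99.97% for Cox4i1, 99.3% for Cox6a1 and 78.8% for Atp5g3, and the median coding share 98.7%. The cause was not tested. Depth limits the paralogues near 0 and Atp5s.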
